A study of Mus musculus with 4 samples.

Results

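Spermatogonial stem cells are kept in the testis by signals from the somatic cells around them. Glial cell line-derived neurotrophic factor (GDNF) is secreted by Sertoli cells and peritubular myoid cells and binds the co-receptor GFRA1, which signals through the receptor tyrosine kinase RET. The transcription factor genes Etv5, Bcl6b, Lhx1 and T are known GDNF-responsive genes of cultured stem spermatogonia. The chemokine CXCL12, whose receptor is CXCR4, and the fibroblast growth factor FGF2 are further niche signals. The 10 genes described here were therefore the ligands Gdnf, Cxcl12 and Fgf2, the receptors Gfra1, Ret and Cxcr4, and the targets Etv5, Bcl6b, Lhx1 and T. They were matched by symbol, were all found once among the 32285 genes of the count matrices, and were chosen by function, with earlier results of these data known.

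The scRNA-seq data came from 2 libraries of mouse testicular organoids (TOs) and 2 libraries of mouse testes, both from ICR mice, for which no engineered allele is named. The TOs had been built from dissociated testis cells of pups some days old and cultured in 3 dimensions. The design text of the series gives an age of 28 days for TOs and testes, as does the paper. In the paper, the days of TOs count time in culture and leave out the age of the donor pups. The shared figure of 28 days is therefore not a shared age. The extraction protocol of the series names day 21 for the TOs. Per the study's methods, the medium of the first day held recombinant GDNF, a soluble GFRA1 and FGF2, and the medium used afterwards held follicle-stimulating hormone and testosterone without these factors. The labels do not say which animals or cultures the replicates came from, and the methods name batches of organoids, so that p-values measure the spread between these libraries.

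After doublet removal and filters, 9802 and 8713 TO cells and 9867 and 9516 testis cells were kept, with a median of 5479.5 and 7561 UMIs per cell in TOs and 2549 and 3271 in testes. Between 30 and 55 barcodes were shared by each pair of libraries. Clusters were named from marker genes, none of which is among the 10 genes, and the names Sertoli, Leydig, peritubular myoid, stromal, macrophage, endothelial, spermatogonia and spermatid stand for cells that are like these types by their markers. Undifferentiated spermatogonia (Zbtb16, Sall4, Nanos3 and others) comprised 241 and 111 TO cells and 183 and 63 testis cells. The cells named endothelial were all from testes (132 and 87 cells). Summed levels are given as UMIs per 1000000 UMIs of that cell type and library (CPM). Because UMI counts were not scaled by gene length, levels were compared between cell types and libraries, not between genes. Spermatid transcripts were counted in somatic cells of the testes, where spermatids were the largest class: the summed level of 7 spermatid markers was 1862 and 5127 CPM in testis Sertoli cells and 1.12 and 2.15 CPM in TO Sertoli cells. All 7 were found in at least 10% of Sertoli cells of testis replicate 1, 6 in testis replicate 2 and 0 in the TOs, and 3 were at 0 in each TO library. The part of such transcripts in the results below was not tested. In bulk sums of a cell type, fewer expressing cells and less RNA per cell cannot be told apart, and shares of cells with a UMI are therefore given beside the called results and for Gfra1.

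The stretches of 250 bases before the RefSeq start sites of Gdnf and Cxcl12 are shown because these are the ligands whose levels differed between TOs and testes below. RefSeq start sites were found for 8 of the 10 genes (not for Ret and Bcl6b), on build GRCm38.p6. The Gdnf stretch is chr15:7809798-7810047 on the plus strand, and the Cxcl12 stretch is chr6:117168285-117168534 on the plus strand. Capitals mark matches, on either strand, to the TATA box (TATAAA), the CCAAT box, the E-box (CACGTG), the core of a cAMP response element (TGACG, which reads CGTCA in reverse) or the GC box (GGGCGG, which reads CCGCCC in reverse).
Gdnf: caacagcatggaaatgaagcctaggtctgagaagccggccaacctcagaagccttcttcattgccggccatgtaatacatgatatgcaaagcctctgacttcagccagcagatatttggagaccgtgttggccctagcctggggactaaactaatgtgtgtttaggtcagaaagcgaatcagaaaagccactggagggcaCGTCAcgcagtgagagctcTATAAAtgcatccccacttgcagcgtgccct
Cxcl12: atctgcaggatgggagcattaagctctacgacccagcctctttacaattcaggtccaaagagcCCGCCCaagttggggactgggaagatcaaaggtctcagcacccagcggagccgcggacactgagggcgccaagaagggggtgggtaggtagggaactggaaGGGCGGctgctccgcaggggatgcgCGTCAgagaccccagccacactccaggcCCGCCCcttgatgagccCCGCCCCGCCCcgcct
The Gdnf stretch held 1 TATAAA, at bases -31 to -26 from the start site, and 1 TGACG, at -50 to -46. The Cxcl12 stretch held no TATA box, 1 TGACG at -61 to -57 and 5 GGGCGG, a pair of which overlapped by 1 base near the start site. Of 27025 mouse promoter stretches of this length, 13.0% held the TATA box, 34.5% the CCAAT box, 6.05% the E-box, 17.9% the TGACG core and 32.9% the GC box. The GC contents of the Gdnf and Cxcl12 stretches were 50.8% and 64.4%. In the GENCODE vM21 annotation of the same genome, Gdnf lies at chr15:7810846-7837575 and Cxcl12 at chr6:117168535-117181367, both on the plus strand, so that neither stretch lies within its annotated gene.

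In the somatic cells, the first question was which cells carried the RNA of the ligands and whether the TO cells resembled their testis counterparts. Gdnf was higher in TO Sertoli cells than in testis Sertoli cells, Cxcl12 was higher in TO peritubular myoid cells, and the receptor gene Cxcr4 was higher in TO macrophages. These were the 3 of 18 fits of a member in a somatic type (16.7%) that passed an adjusted p below 0.01 and a fold above 2 in edgeR's quasi-likelihood test, where 20.5% of all gene fits in the same 5 types passed it (3.89% higher and 16.6% lower in TOs). The 3 calls were all higher in TOs. Of the 18 fits, 7 had both TO libraries above the testis libraries (32.3% of all gene fits), 6 had both below them (37.1% of all gene fits) and 5 overlapped.

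In TOs, most Gdnf UMIs came from Sertoli cells and peritubular myoid cells. In Sertoli cells, which surround and feed the germ cells, TO replicate 1 had a level of 14.3 CPM (205 UMIs) and TO replicate 2 one of 14.0 CPM (104 UMIs), where testis replicate 1 had 3.11 CPM (8 UMIs) and testis replicate 2 had 3.48 CPM (4 UMIs). The groups did not overlap, and neither did the shares of Sertoli cells with a Gdnf UMI, which were 11.9% and 12.1% in TOs against 1.29% and 2.74% in testes. The median depth of these cells was 10070.5 and 11340 UMIs in TOs and 6128.5 and 8950 UMIs in testes. At 1500 UMIs per cell the shares were 2.06% and 2.63% in TOs against 0.215% and 0% in testes, where macrophages, which should lack Gdnf, had 0%, 0%, 0.431% and 0% (median depth 3069.5 to 6326.5 UMIs). The log2 fold change was 2.22 ± 0.38 (SE, adjusted p = 0.00333 in edgeR, where 26.6% of 14278 genes were called and 7.89% were called higher), and the ratio of the pooled sums was 4.40, with an exact 95% counting interval of 2.49 to 8.62. Only 12 UMIs stood behind the testis level, and the call did not hold without testis replicate 1 (log2 fold change 2.11, adjusted p = 0.0144), though the size of the difference stayed between 2.10 and 2.39 over all alternatives.

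Sertoli cells of the 2 tissues fell partly into different clusters. The cluster that held most of them in 3 libraries (970 and 493 TO cells and 319 cells of testis replicate 1) had only 31 cells of testis replicate 2, of whose Sertoli cells 103 formed a cluster of their own. Within the shared cluster, Gdnf was at 15.2 and 14.3 CPM in TOs, at 3.55 CPM in testis replicate 1 (8 UMIs) and without a UMI in testis replicate 2. The cluster particular to testis replicate 2 held the 4 UMIs of that library, at 4.00 CPM. Over clusters with at least 10 cells in each library, the log2 fold change was 2.27, with an adjusted p of 0.0448.

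The name peritubular myoid, for the contractile cells that line the tubules, was given here by marker genes. In the cells so named, Gdnf was at 9.52 and 8.13 CPM in TOs (111 and 100 UMIs). In testes it was at 10.7 and 6.84 CPM (20 and 10 UMIs). The testis libraries lay on either side of the TO libraries, and the log2 fold change was -0.01 ± 0.40 (adjusted p = 0.989). The pooled ratio was 0.979, with a counting interval of 0.666 to 1.49. The class also held a smaller cluster whose leading genes included Rgs5 and Rergl. It made up 66 of 2373 and 76 of 1744 TO cells, and 216 of 694 and 144 of 429 testis cells. Gdnf was at 1.93 and 0 CPM there in TOs and at 1.72 and 2.14 CPM in testes. The larger cluster had 9.88 and 8.64 CPM in TOs and 14.7 and 9.04 CPM in testes, with overlap. The part of this mixture in the myoid values was not tested. The change in Sertoli cells exceeded that in myoid cells by 2.29 on the log2 scale in a test of the difference within libraries (adjusted p = 0.00584 in edgeR, where 11.8% of genes passed 0.01). This pair, like the other pairs compared in this way, was chosen by how its libraries differed, and the p adjusted over genes makes no allowance for that choice. The order of the types was not the same: Sertoli cells were above myoid cells in both TO libraries and below them in both testis libraries, with overlapping counting intervals in testis replicate 2. Sertoli and myoid cells held 59.2% and 32.1% of all Gdnf UMIs in TO replicate 1, and 47.5% and 45.7% in TO replicate 2. In the testes, Sertoli cells held 11.3% and 10.8%, myoid cells 28.2% and 27.0%, and the far more numerous spermatids 43.7% and 43.2%, at a level of 1.44 and 0.57 CPM. The level was uneven among spermatids. It was 6.31 and 5.86 CPM in 1 cluster, above both testis Sertoli levels, and 3.80 and 3.26 CPM in another. The other spermatid clusters had 1.46 CPM or less. Leydig cells were at 0.37 to 1.67 CPM, macrophages had 1 UMI in all 4 libraries together, and undifferentiated spermatogonia had 1 UMI in each condition.

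**Figure D1:**
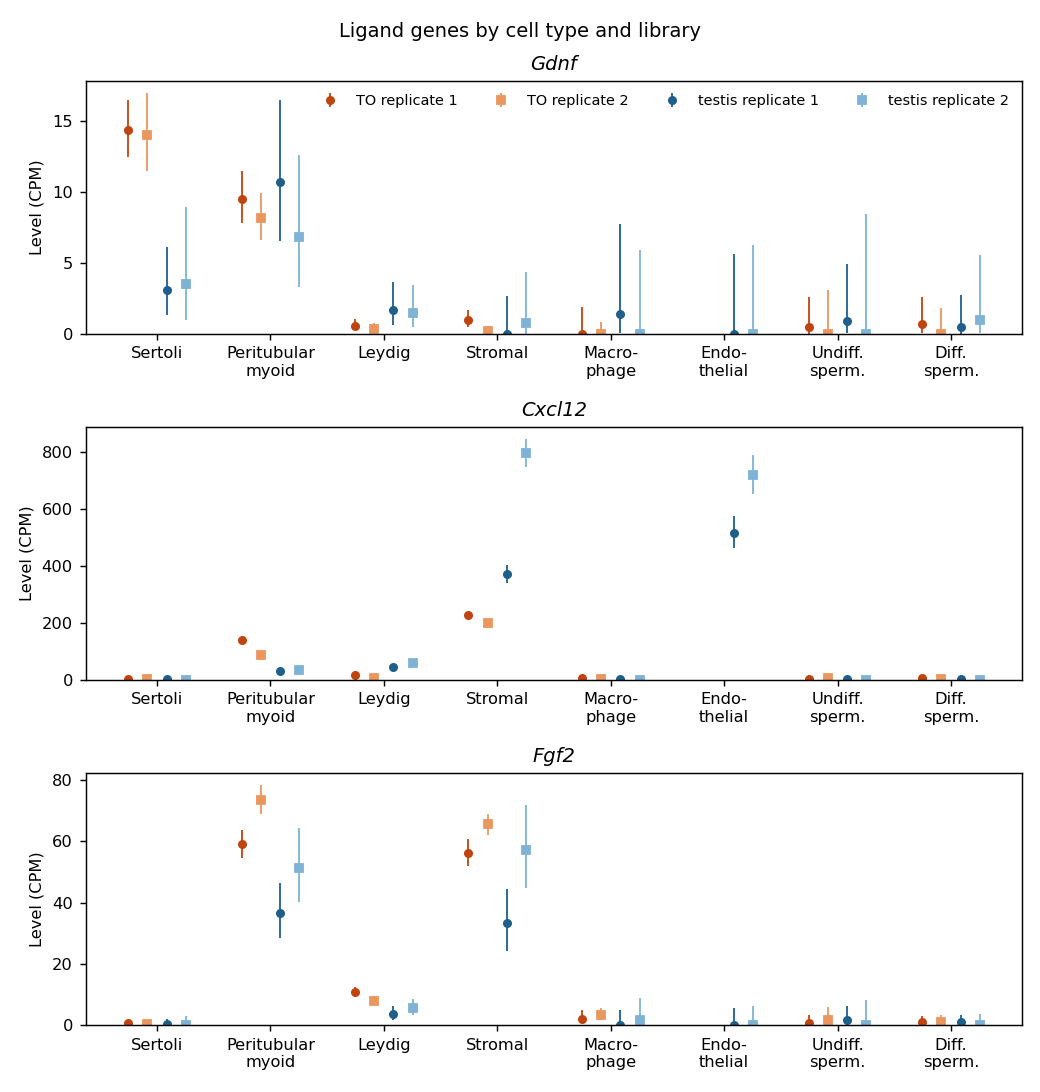
Levels of Gdnf, Cxcl12 and Fgf2 (CPM, linear axes) in 8 cell types, with 1 point per library and exact 95% Poisson intervals, which cover counting error only; cells were named endothelial in testes only. In Sertoli cells, both TO points for Gdnf lie near 14 CPM and both testis points between 3 and 4 CPM, while the myoid points of the 4 libraries overlap.

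Cxcl12 had other sources. Stromal cells, the fibroblast-like cells between the tubules, had 226 and 199 CPM in TOs and 369 and 794 CPM in testes. The testis endothelial cells had 515 and 717 CPM, and their range overlapped that of the testis stromal cells. The 2 testis libraries differed in stromal cells by more than the 2 TO libraries did, and the log2 fold change of -1.34 ± 0.35 did not pass the threshold (adjusted p = 0.029, 18.3% of genes called in stromal cells). It passed the threshold with DESeq2, without the filter on low counts, with the replicate block, without TO replicate 1 and without testis replicate 1.

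Peritubular myoid cells went the other way. Their Cxcl12 level was 139 and 87.0 CPM in TOs and 30.4 and 33.5 CPM in testes (1627, 1071, 57 and 49 UMIs). A Cxcl12 UMI was found in 39.9% and 37.4% of the TO cells and in 5.62% and 10.3% of the testis cells, or in 16.6% and 12.4% against 4.47% and 6.06% at 1500 UMIs, where macrophages had 0.372%, 0.432%, 0.431% and 0%. The groups did not overlap, with a log2 fold change of 1.83 ± 0.27 (adjusted p = 0.00104 in edgeR, 24.3% of 15635 genes called and 4.27% called higher). The call was lost without testis replicate 1 (adjusted p = 0.0663) or without testis replicate 2 (adjusted p = 0.0510), with log2 fold changes of 1.53 to 2.15 over all alternatives. Spermatid markers summed to 1.97 and 3.58 CPM in these cells in TOs and to 3061 and 3332 CPM in testes, while spermatids themselves had 0.56 and 0.60 CPM of Cxcl12 in testes; their part in the result was not tested. The larger of the 2 myoid clusters showed 140 and 84.1 CPM in TOs against 27.8 and 27.1 CPM in testes, and the smaller one, whose leading genes included Rgs5, showed 132 and 133 against 36.1 and 47.2 CPM. The change in myoid cells exceeded that in stromal cells by 2.97 on the log2 scale (adjusted p = 2.54e-07, 4.5% of genes passing 0.01). Myoid cells thereby held 35.1% and 19.0% of the Cxcl12 UMIs of the TO libraries and 5.22% and 2.87% of those of the testis libraries, and stromal cells held 56.3% and 78.1% against 46.7% and 59.5%. A further 30.9% and 24.8% of testis UMIs came from endothelial cells, a name that no TO cells took here. Leydig cells had 17.2 and 5.86 CPM in TOs and 44.7 and 57.4 CPM in testes (log2 fold change -2.24, adjusted p = 0.0154). Other cells held at least 5 times the Leydig level in TOs, but not in testes.

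Fgf2 was carried by myoid and stromal cells. In myoid cells it was at 59.0 and 73.5 CPM in TOs and 36.8 and 51.3 CPM in testes, so that the groups did not overlap, with a log2 fold change of 0.61 ± 0.25 (adjusted p = 0.0872). Within the larger myoid cluster the groups did overlap, with 56.7 and 72.3 CPM in TOs and 49.5 and 69.3 CPM in testes. The smaller cluster had 104 and 92.6 CPM in TOs and 8.59 and 12.9 CPM in testes. It held 66 and 76 TO cells and 216 and 144 testis cells. In stromal cells Fgf2 was at 56.2 and 65.5 CPM against 33.3 and 57.1 CPM, where TO replicate 1 lay below testis replicate 2 (log2 fold change 0.55 ± 0.28, adjusted p = 0.180). Leydig cells had 10.8 and 8.05 CPM in TOs and 3.61 and 5.59 CPM in testes (0.95 ± 0.45, adjusted p = 0.176). Sertoli cells had 0.84 CPM or less in each library, and the endothelial cells had no UMI, which allows up to 4.57 and 5.07 CPM. The Fgf2 gene overlaps other annotated genes on both strands (Gm43439 on its own strand, Nudt6 on the other), so that part of its UMIs may belong to them.

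The receptors were asked of the spermatogonia. In undifferentiated spermatogonia, 5 members had enough UMIs to be tested (Gfra1, Ret, Etv5, Bcl6b and Lhx1), and 0 of them were called in edgeR, against 10.8% of 11096 genes (0.775% higher and 9.99% lower in TOs). With an unadjusted p below 0.05 there was 1 member, Gfra1, where 2747 of the 11096 genes had one, and DESeq2 also called 0. Gfra1 was also the only one with both TO libraries above both testis ones (30.8% of all genes), and 0 had both below (23.3% of all genes). In sums simulated at the depths of these libraries, 81.2% of genes changed by 2 on the log2 scale were called, and smaller changes were not simulated. The spread between simulated libraries was set and not taken from the data, and the changed genes were drawn above a minimum count. The rate is therefore not one for these members. In differentiating spermatogonia (348 and 245 TO cells, 433 and 164 testis cells) no member passed the filter, and none had more than 14 UMIs in a library.

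Gfra1 was at 340 and 194 CPM in the undifferentiated spermatogonia of TOs and at 138 and 192 CPM in those of testes (726, 230, 157 and 84 UMIs). TO replicate 1 stood above the other libraries, and TO replicate 2 and testis replicate 2 were nearly equal. The log2 fold change was 0.65 ± 0.25 (adjusted p = 0.0680) and fell to 0.21 without TO replicate 1. It ran from 0.213 to 0.981 over all 15 alternatives, and Gfra1 passed both limits together in none of them. A Gfra1 UMI was found in 76.8% and 53.2% of these cells in TOs and in 35.0% and 49.2% in testes. After each cell was thinned to 1500 UMIs the shares were 34.2% and 23.4% against 16.4% and 25.4%, so that the groups overlapped at equal depth. In differentiating spermatogonia, Gfra1 was at 0.72 and 0.49 CPM in TOs and 3.88 and 1.99 CPM in testes, at most 8 UMIs in a library.

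Ret, the signalling receptor, was mostly found in the same cells, with 110 and 84.4 CPM in TOs and 73.6 and 100 CPM in testes. The libraries overlapped (log2 fold change 0.13 ± 0.24, adjusted p = 0.802). Undifferentiated spermatogonia held 91.4% and 91.7% of all Ret UMIs of the TOs and 84.8% and 55.0% of those of the testes, where spermatids held 13 and 29 further UMIs.

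Gfra1 was spread more widely than Ret. In the testes, spermatids held 66.0% and 68.0% of all Gfra1 UMIs (522 and 261), at 24.3 and 9.26 CPM, and undifferentiated spermatogonia held 19.8% and 21.9%. The share of spermatids with a Gfra1 UMI was 12.0% and 4.71%, or 4.47% and 1.94% at 1500 UMIs, where testis endothelial cells, which should lack it, had 0.758% and 0%. The levels were 70.3 and 43.0 CPM in 1 cluster of spermatids and 54.4 and 31.0 CPM in another. The TO libraries held only 25 and 24 spermatids, with 1 and 4 Gfra1 UMIs.

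**Figure D2:**
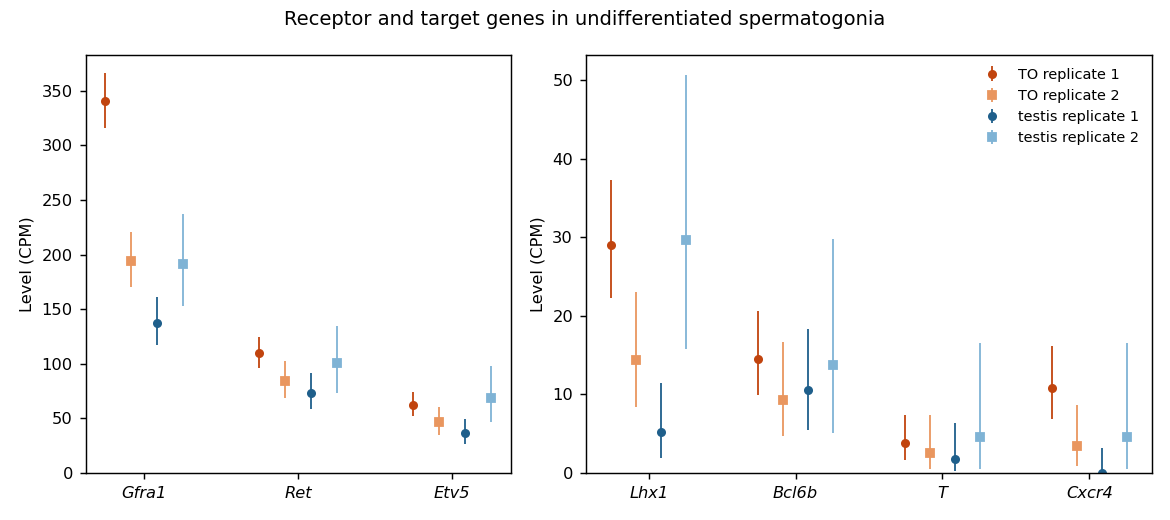
Levels of 3 receptor genes and 4 target genes in undifferentiated spermatogonia (CPM, linear axes, a separate scale on each side), with 1 point per library and exact 95% Poisson intervals. For Gfra1, TO replicate 1 lies above the other 3 libraries, and for Ret, Etv5, Lhx1, Bcl6b and T the TO and testis points overlap.

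The target genes showed no called difference either. Etv5 was at 62.4 and 46.4 CPM in TOs and 36.8 and 68.4 CPM in testes (log2 fold change 0.09 ± 0.30, adjusted p = 0.900). Lhx1 was at 29.1 and 14.4 CPM against 5.26 and 29.7 CPM (0.66 ± 0.53, adjusted p = 0.495), and the difference turned to -0.47 without testis replicate 1, which had 6 UMIs, and to -0.01 without TO replicate 1. Bcl6b was at 14.5 and 9.29 CPM against 10.5 and 13.7 CPM (-0.01 ± 0.55, adjusted p = 0.997). In all 3 genes the groups overlapped. T, or Brachyury, was found in undifferentiated spermatogonia at 8, 3, 2 and 2 UMIs (3.75 and 2.53 CPM in TOs, 1.75 and 4.56 CPM in testes), with a pooled ratio of 1.31 and a counting interval of 0.388 to 5.64. Outside these cells, no type had more than 1 T UMI in a library.

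Etv5 was not a gene of spermatogonia alone. Sertoli cells had 63.2 and 58.5 CPM in TOs and 45.5 and 100 CPM in testes, a range that overlapped that of the undifferentiated spermatogonia. In macrophages it was at 45.9 and 38.5 CPM in TOs and 19.5 and 19.2 CPM in testes, without overlap (log2 fold change 1.32 ± 0.36, adjusted p = 0.0160). In stromal cells the TO libraries were the lower ones, with 18.7 and 21.7 CPM against 36.9 and 36.0 CPM (-0.75 ± 0.26, adjusted p = 0.0680). Neither change passed the threshold. The difference between them was 2.43 on the log2 scale (adjusted p = 9.98e-05, 5.47% of genes passing 0.01), in a pair that was chosen because its libraries had moved in opposite directions. Bcl6b had a second site in the testis endothelial cells, at 24.4 and 28.8 CPM, and Lhx1 had 57 and 156 UMIs in testis spermatids, at 2.65 and 5.54 CPM. This level was uneven. In 1 spermatid cluster it was 30.8 and 14.8 CPM (14 and 18 UMIs), a range overlapping that of the testis undifferentiated spermatogonia. Other spermatid clusters had no Lhx1 UMI in either testis library.

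Cxcr4, the CXCL12 receptor, was highest in macrophages in 3 of the 4 libraries, and in testis replicate 2 macrophages, Sertoli cells and endothelial cells were close to each other (17.6, 18.3 and 16.9 CPM). In macrophages it was at 47.4 and 104 CPM in TOs and at 30.6 and 17.6 CPM in testes (94, 464, 22 and 11 UMIs). A UMI was found in 23.7% and 33.1% of TO macrophages and 7.76% and 6.76% of testis macrophages, or in 4.83% and 12.5% against 3.45% and 1.35% at 1500 UMIs, where stromal cells had 0.175%, 0.0627%, 0% and 0%. The groups did not overlap, and the log2 fold change was 1.86 ± 0.44 (adjusted p = 0.00781 in edgeR, where 19.6% of 10805 genes were called and 3.35% called higher). TO replicate 2 stood further above TO replicate 1 than that library stood above testis replicate 1. Without TO replicate 2 the log2 fold change was 1.20 (adjusted p = 0.0540), without testis replicate 2 it was 1.45 (adjusted p = 0.0105), and with library totals in place of TMM it was 1.63 (adjusted p = 0.0201) while the median of all genes moved from 0.065 to -0.159. Spermatid markers in these macrophages summed to 2.02 and 3.36 CPM in TOs and 2480 and 3216 CPM in testes, and their part in the result was not tested. Sertoli cells had 11.7 and 8.47 CPM against 7.39 and 18.3 CPM, with overlap (log2 fold change -0.12, adjusted p = 0.853), and the change in macrophages exceeded it by 1.73 (adjusted p = 0.00882, 8.65% of genes passing 0.01). In undifferentiated spermatogonia there were 23 and 4 Cxcr4 UMIs in TOs and 0 and 2 in testes. The pooled ratio was 6.43, with a counting interval of 1.62 to 55.8, but TO replicate 2 (3.38 CPM) lay below testis replicate 2 (4.56 CPM).

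**Figure D3:**
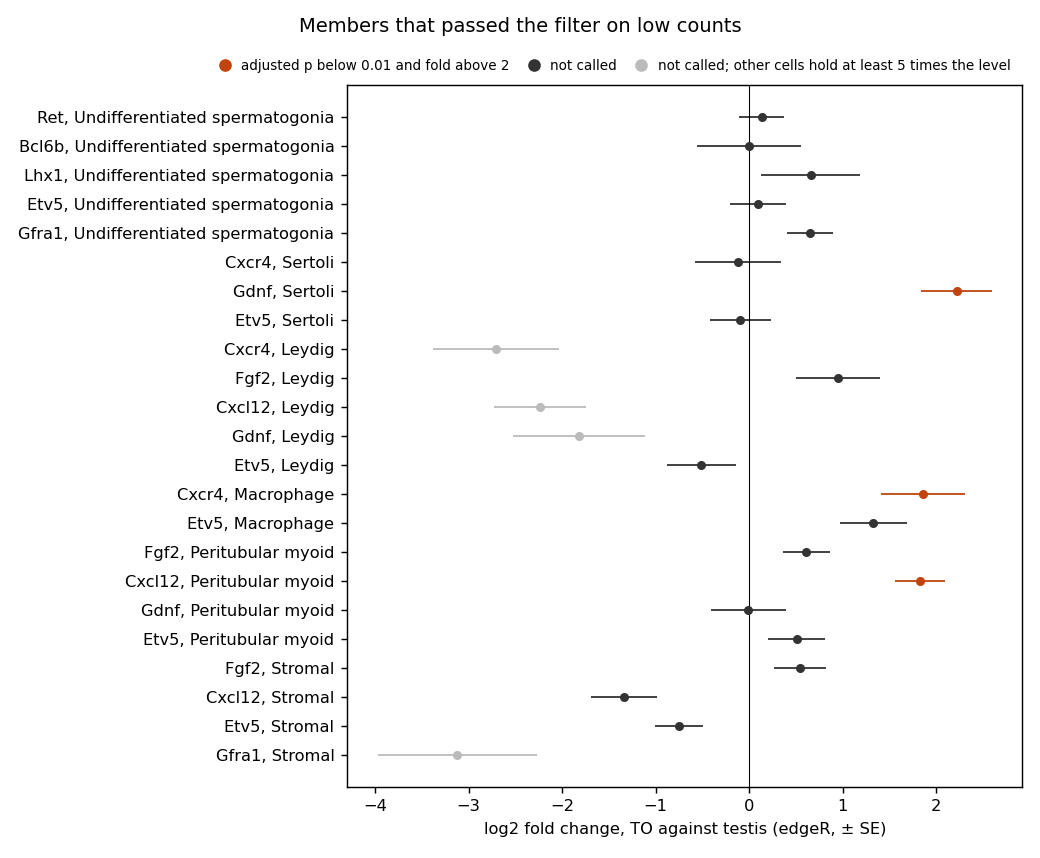
Log2 fold changes of TOs against testes with their standard errors (edgeR) for the 23 combinations of member and cell type that passed the filter on low counts. The 3 called combinations lie between 1.83 and 2.22. The 4 grey points mark types in which, in at least 1 condition, other cells of the same libraries held at least 5 times the level.

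Within the undifferentiated spermatogonia, Ret, Etv5 and Lhx1 were each found more often in the cells that also held Gfra1. Ret was detected in 60.5% and 66.1% of TO cells with a Gfra1 UMI and in 16.1% and 17.3% of those without one, and in testes in 53.1% and 67.7% against 23.5% and 21.9%. Etv5 was detected in 41.1% and 42.4% against 7.14% and 13.5% in TOs, and in 32.8% and 54.8% against 6.72% and 9.38% in testes. Lhx1 was detected in 21.6%, 18.6%, 7.81% and 22.6% of the cells with Gfra1 and in 1.79%, 0%, 0% and 0% of the others. All 4 libraries showed this order for these genes. Kit, the receptor of differentiating spermatogonia, went the other way, with 14.6%, 15.3%, 7.81% and 0% against 30.4%, 36.5%, 21.0% and 12.5%. Cells with Gfra1 had a higher median depth in TO replicate 1 (9582 against 8057 UMIs), nearly the same in TO replicate 2 and a lower one in both testes, and at 1500 UMIs per cell Ret kept the order in each library (18.7%, 18.6%, 15.6% and 19.4% against 4.08%, 7.69%, 4.20% and 3.13%). Bcl6b and Cxcl12 did not keep one order, both being rarer in the cells with Gfra1 in testis replicate 1 (4.69% against 7.56%, and 0% against 3.36%).

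**Figure D4:**
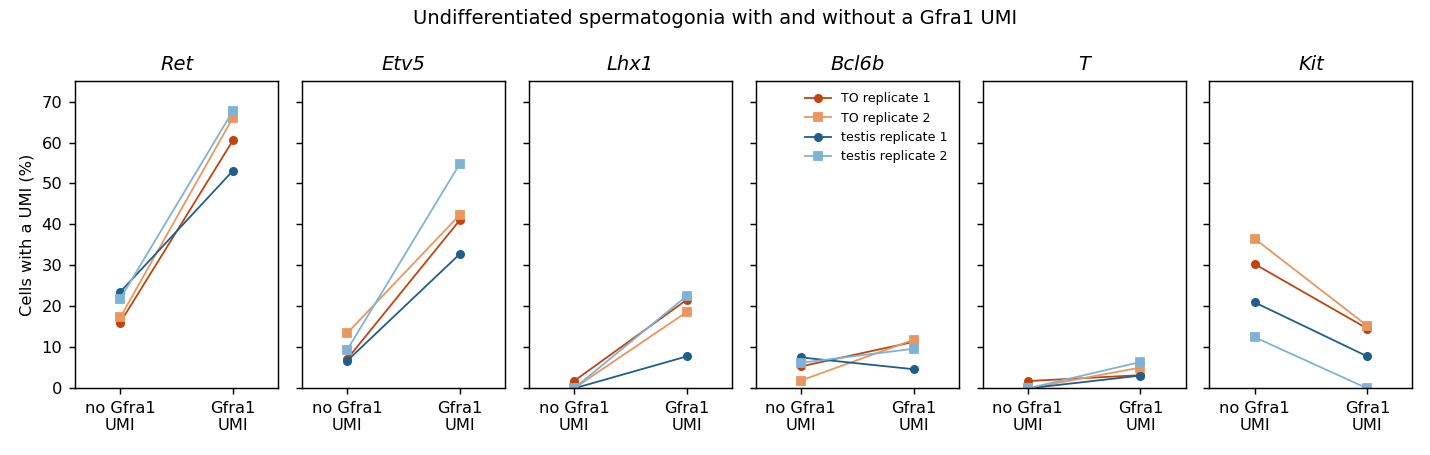
Share of undifferentiated spermatogonia with a UMI of 6 genes, split by whether the cell had a Gfra1 UMI; each line is a library. The lines for Ret, Etv5 and Lhx1 rise in all 4 libraries and those for Kit fall in all 4, while those for Bcl6b do not share a direction.

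A small group of TO cells carried Gfra1 outside the germ line. They were the TO cells of the cluster that also held the testis endothelial cells, 67 in TO replicate 1 and 79 in TO replicate 2. They were set apart by their Wt1 (in 94.0% and 97.5% of cells) and Pecam1 (in 0% of both), so that neither gene is a finding. That such cells carry Gfra1 was known from earlier results of these data. Their Gfra1 level is therefore a description of these cells. Gfra1 was at 204 and 249 CPM in them (91 and 174 UMIs), and 55.2% and 81.0% of the cells had a UMI, or 21.5% and 32.9% at 1500 UMIs. This range overlapped that of the TO undifferentiated spermatogonia, while TO Sertoli cells, which also carry Wt1, had 0.14 and 0.27 CPM and testis endothelial cells 1.52 and 0 CPM. The group made up less than 1% of the TO cells but held 10.8% and 40.9% of all Gfra1 UMIs of these libraries. With doublets kept, 66 of the 67 and all 79 of the 79 cells were placed among 80 and 85 TO cells that took the name endothelial and had 173 and 254 CPM of Gfra1, and the rule found 19 and 4 other cells without a Gfra1 UMI.

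The cells did not carry the rest of the GDNF pathway at the level of spermatogonia. Ret was at 8.95 and 4.29 CPM (4 and 3 UMIs), Etv5 at 8.95 and 10.0 CPM, Gdnf at 8.95 and 4.29 CPM, and Lhx1, Bcl6b and T had no UMI, which allows up to 6.71 and 4.29 CPM. Cxcr4 was at 15.7 and 21.5 CPM and Fgf2 at 11.2 and 10.0 CPM. Of the pathway genes, the FGF receptor gene Fgfr2 was at 693 and 762 CPM, the adhesion genes Ncam1 and Cdh1 at 246 and 232 and at 315 and 196 CPM, and the sorting receptor gene Sorl1 at 154 and 179 CPM.

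These cells carried markers of several lists. Of 6 endothelial markers only Kdr was found in at least 10% of the cells (52.2% and 44.3%). Of 9 Sertoli markers, 8 were found (7 in the Sertoli cells of each TO library), among them Sox9 (67.2% and 75.9%) and Cldn11 (91.0% and 92.4%), but Amh was at 0, and the markers summed to 3932 and 2904 CPM against 12947 and 13378 CPM in TO Sertoli cells. Of 6 markers of the rete testis, the duct system that drains the tubules, 4 were found: Pax8 (80.6% and 91.1%), Krt8 (34.3% and 59.5%), Epcam (44.8% and 50.6%) and Aldh1a3 (20.9% and 22.8%), while Krt19 was in 1.49% and 3.80% and Ovol1 at 0. The markers of the rete testis summed to 850 and 1076 CPM. Of 7 stromal markers 4 and 2 were found (982 and 185 CPM summed), of 6 Leydig markers 4 and 2 (412 and 240 CPM), and of 5 mesothelial markers 0. The genes that led the group over other TO cells were Rmst, Wfdc2, Cldn3 and Pax8. The group is therefore called here by its rule and not by a cell type. Spermatid markers and the spermatogonial markers Utf1 and Upp1 were at 0, and Zbtb16 was found in 26.9% and 43.0% of the cells.

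The rule was also applied to each TO cell by itself, as any cell with a Wt1 UMI and no Pecam1 UMI. It then took in 2256 and 1390 cells, of which 1310 and 634 were Sertoli cells, and in which Gfra1 was at 7.95 and 14.0 CPM. Of their 151 and 186 Gfra1 UMIs, 89 and 171 came from the small group, 58 and 11 from undifferentiated spermatogonia and 2 in each library from Sertoli cells. The same rule in testes gave 492 and 218 cells with 3.70 and 3.99 CPM.

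**Figure D5:**
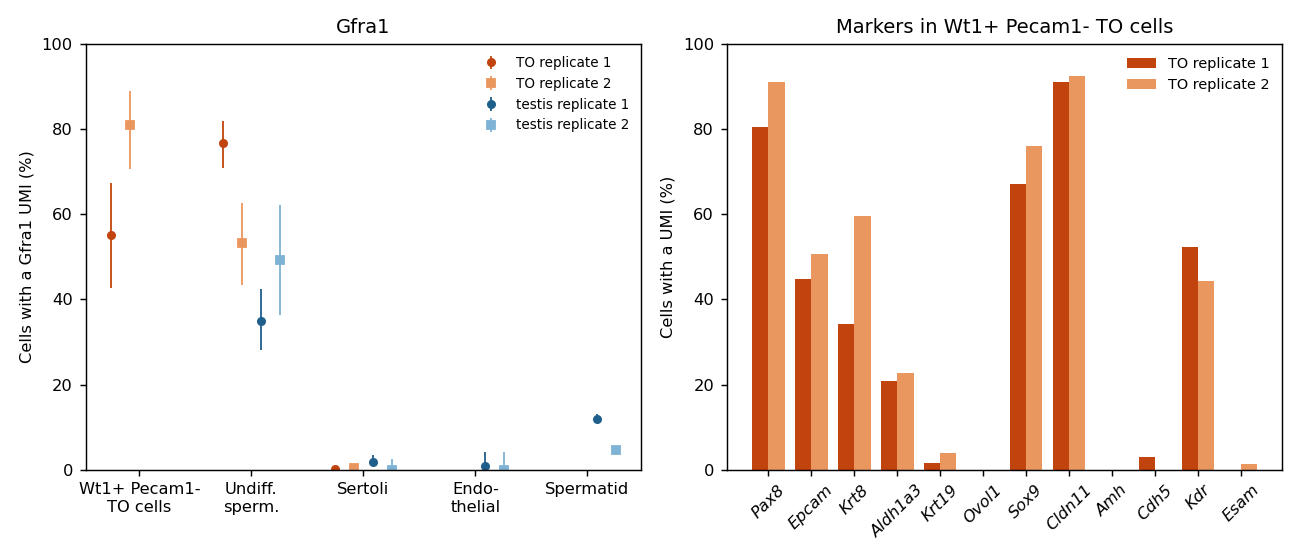
Left, the share of cells with a Gfra1 UMI in 5 cell groups (points are libraries, bars are exact 95% binomial intervals, groups of at least 50 cells only); right, the share of Wt1-positive, Pecam1-negative TO cells with a UMI of markers of the rete testis (Pax8 to Ovol1), Sertoli cells (Sox9 to Amh) and endothelium (Cdh5 to Esam). The group lies at 55.2% and 81.0% for Gfra1, TO Sertoli cells near 0.

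Other genes of the pathway were also read from the fit in undifferentiated spermatogonia. Of 61 listed genes, 32 were tested and 4 were called (1 higher and 3 lower in TOs), where 10.8% of all genes were called, with a median log2 fold change of 0.08 against 0.02 over all genes. Among 22 GDNF-responsive or stem cell genes, 16 were tested. Sox3, a transcription factor gene of committed progenitors, was at 42.7 and 64.2 CPM in TOs and 112 and 89.0 CPM in testes (log2 fold change -1.06, adjusted p = 0.00233). Cdh1, the gene of E-cadherin, was at 22.5 and 7.60 CPM against 38.6 and 43.3 CPM (-1.41, adjusted p = 0.00992), and both TO libraries lay below both testis libraries in each of the 2 genes. Id1 was the one called higher, at 32.4 and 28.7 CPM against 4.38 and 4.56 CPM (2.68, adjusted p = 0.000158). In at least 1 condition, however, other cells of the same libraries held at least 5 times that level, and in TO myoid cells Id1 reached 898 and 681 CPM. The 11 others with at least 20 CPM in a library, Ccnd2, Foxo1, Egr4, Pou3f1, Id4 and Nefm among them, had log2 fold changes of -0.58 to 0.66 and were not called. Artn, the gene of the GDNF relative artemin, was called lower, being without a UMI in TO undifferentiated spermatogonia and at 9.64 and 13.7 CPM in testes. Other cells held at least 5 times its level in at least 1 condition. A level of 0 in TOs meets that rule wherever other TO cells hold a UMI. The Artn call was not particular to these cells. It was also made in differentiating spermatogonia and in Sertoli, Leydig, macrophage and myoid cells. Testis macrophages had 12.5 and 9.61 CPM of Artn, against 0.504 and 0.447 CPM in TOs. Testis myoid cells had 24.0 and 21.9 CPM, against 2.14 and 3.66 CPM in TOs.

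Genes that FGF and other receptor tyrosine kinases are known to induce as feedback inhibitors did not pass the test in undifferentiated spermatogonia but did in Sertoli cells. In undifferentiated spermatogonia 0 of 8 tested genes of the FGF and CXCL12 list were called, with a median of 0.71. Of the 8, 4 had an unadjusted p below 0.05, as had 2747 of all 11096 genes tested in these cells. Spred2 was at 105 and 78.5 CPM in TOs and 50.8 and 57.0 CPM in testes (log2 fold change 0.71, adjusted p = 0.0613), and Dusp6 at 61.0 and 54.9 against 23.7 and 50.2 CPM. In Sertoli cells 6 of 11 were called higher and 0 lower (26.6% of all genes called, 7.89% higher), with a median of 1.41 against 0.02 over all genes. The phosphatase gene Dusp6 was at 67.0 and 71.2 CPM in TOs and 15.6 and 31.3 CPM in testes (1.76), Spry1 at 58.2 and 73.0 against 11.7 and 30.4 CPM (1.88), and Spred1 at 59.9 and 54.0 against 9.73 and 17.4 CPM (2.27). Spry2, Spred2 and the receptor gene Fgfr1 were the other called genes, with log2 fold changes of 3.40, 1.41 and 2.96. The TO libraries lay above the testis libraries in these 6 genes, whereas Fgfr2, at 70.6 and 47.2 against 72.0 and 60.0 CPM, was not called. Whether the changes in the 2 cell types differed was not tested for this list.

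Among the other niche ligands, 4 of 11 tested genes were called higher and 2 lower in TO Sertoli cells, where 26.6% of all genes were called, Fgf18 (13.8 and 17.7 against 0.78 and 3.48 CPM) among the former and Tgfb1 (19.4 and 18.3 against 50.6 and 52.2 CPM) among the latter. The other 3 of the former (Csf1, Lif and Wnt5a) and Fgf10 among the latter were flagged genes. Other cells of the same libraries held at least 5 times their level in at least 1 condition. In myoid cells 4 of 12 were called higher and 0 lower (24.3% of all genes called, 4.27% higher), with Igf1 at 825 and 736 against 289 and 267 CPM and Inhba at 56.1 and 44.2 against 9.59 and 6.16 CPM. In Leydig cells 2 of 12 were called higher and 1 lower, where 14.1% of all genes were called. Vegfa was at 43.0 and 40.3 CPM in TOs and 7.22 and 14.1 CPM in testes, and Inhba at 35.7 and 33.6 against 5.55 and 1.18 CPM. Wnt6 fell, from 435 and 408 CPM in testes to 149 and 98.8 CPM in TOs. In stromal cells edgeR called 0 of 13, where 18.3% of all genes were called. Of the 13, 5 had an unadjusted p below 0.05, as had 6647 of all 15477 genes tested in these cells.

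Across the 44 sums of UMIs by cell type and library, the genes with the pattern closest to each of 5 members among 16382 genes were Sorcs3 for Gfra1 (Pearson r = 0.86), Nefm for Ret (0.92), Fut10 for Etv5 (0.88), Ociad2 for Gdnf (0.83) and Sparcl1 for Cxcl12 (0.94). The sums share libraries and depth, and these values are a description. Cdh1 and Ret were also among the 5 closest to Gfra1, at 0.76 and 0.75.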

How the data were processed

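The authors aligned the scRNA-seq reads to mm10 and counted UMIs with Cell Ranger 7.1.0 (names from the submitters' processing notes). They deposited unfiltered, unnormalized UMI counts for 14643 and 12491 TO barcodes and 12179 and 11826 testis barcodes, with 74988295 to 119966959 UMIs per library. Likely doublets (9.46% to 11.7% of barcodes) were found with the Scrublet function of scanpy 1.11.5, since DoubletFinder, named in the paper, was not run here. The paper's limits were then applied: 1000 to 5000 genes, no more than 20000 UMIs and no more than 10% of UMIs from mitochondria. Libraries were joined with a rewritten Harmony on 30 components (20 for germ cells) and clustered by leidenalg 0.10.2 (resolution 1). A cluster took a name from at least 3 markers found in at least 10% of its cells. TO cells of a cluster with Wt1 in at least 25% and Pecam1 in under 1% of them were set apart.

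UMIs were summed per library and type and tested with edgeR 4.0.16 in R 4.3.3 (quasi-likelihood F test, TMM, filterByExpr, Benjamini-Hochberg adjustment over all genes of a type). Calls needed an adjusted p below 0.01 and a fold above 2, limits that the paper also names. The paper set them on a Wilcoxon test, added a limit on the size of the expression difference and first removed possible contamination genes. These further steps were not applied here. An exact permutation test of 2 against 2 libraries cannot go below 0.33 and was not used. Changes were compared between cell types with library as a block. Pairs to compare were those with opposite non-overlapping directions, or with a call in the first and overlap in the second, a choice for which the p-values make no allowance. Intervals are exact (Poisson, binomial) at 95%, a count of 0 was read as up to 3 counts, and both cover counting error only. DESeq2 1.42.0, other filters, scalings and clusterings, and the removal of each library were run as alternatives. On simulated sums, edgeR called 81.2% and 98.9% of genes changed by 2 and 4 on the log2 scale in undifferentiated spermatogonia, and 0 of 10700 unchanged ones. Their spread was set and not estimated from these libraries, and genes with few counts were not among the changed ones. The genes named were the 10 members and, of 61 listed pathway genes, some of those called or with at least 20 CPM. Members and lists were chosen with earlier results of these data known.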

Additional observations from a re-analysis of the deposited data

Results flagged for a closer look

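For 9 pairs of cell types, the change of a member between TOs and testes differed in a test of the difference itself (edgeR, adjusted p below 0.01, library as a block), each given as the first type minus the second on the log2 scale. For Gdnf, Sertoli cells exceeded Leydig cells by 3.85 (adjusted p = 0.0088) and myoid cells by 2.29. For Cxcl12, myoid cells exceeded Leydig cells by 3.97 (adjusted p = 0.0013) and stromal cells by 2.97. For Cxcr4, macrophages exceeded Leydig cells by 4.6 (adjusted p = 0.00124) and Sertoli cells by 1.73. For Etv5, macrophages exceeded stromal cells by 2.43, and myoid cells did so by 1.16 (adjusted p = 0.00844). For Gfra1, undifferentiated spermatogonia exceeded stromal cells by 3.68 (adjusted p = 0.00143), where stromal cells had 10 UMIs in TOs and 8 in testes. The pairs were chosen by how their libraries differed, for which the p-values make no allowance. In the fits of these pairs, between 3.86% and 11.8% of all genes passed the same limit. Members in Leydig cells (Gdnf, Cxcl12, Cxcr4) and Gfra1 in stromal cells were in types where, in at least 1 condition, other cells of the same libraries held at least 5 times the level, and the part of RNA from those cells was not tested.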

How the results depend on the processing

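The count of 0 members called in undifferentiated and in differentiating spermatogonia held under each alternative run. In somatic types, 3 calls became 6 with DESeq2, 5 without a filter on low counts, 5 with the replicate block and 8 at an adjusted p below 0.05 with no fold limit, and they ranged from 1 (without testis replicate 2) to 5 (without TO replicate 1) when a library was left out. The 4 calls of the pathway list in undifferentiated spermatogonia became 1 with DESeq2, 2 without TMM, 1 with genes of other cells left out, 2 with doublets kept and 1 without Harmony, and ranged from 0 (without testis replicate 1) to 6 (without testis replicate 2); without TO replicate 1 there were 2. Applied cell by cell, the rule for Wt1 and Pecam1 gave 7.95 and 13.995 CPM of Gfra1 in place of 204 and 249 CPM, since 1310 of 2256 and 634 of 1390 cells then taken were Sertoli cells. With doublets kept it gave 0 CPM in both libraries, since all but 1 of the cells were then named endothelial, and without upper limits 304.716 CPM in TO replicate 2; the other 7 values for other filters and clusterings, which were added after seeing the data, ran from 200.266 to 249.519 CPM. For other counts that moved, the cause was not tested.

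Of 331 alternative values for 23 fold changes, 31 changed sign, all for members that were not called, and 10 values of the 3 called members missed the threshold in the same direction, among them Cxcr4 in macrophages with genes of other cells left out, doublets kept or no upper limits. Bcl6b in undifferentiated spermatogonia turned to 0.075 without TMM, 0.038 without the filter, 0.008 with the replicate block, 0.125 with doublets kept and 0.097 at a minimum of 500 genes. Cxcr4 in Sertoli cells turned to 0.044 without the filter, 0.009 with doublets kept, 0.023 at 500 genes and 0.585 in clusters of at least 10 cells in each library. Etv5 in Sertoli cells turned to 0.065 without the filter, 0.146 without upper limits, 0.024 at 500 genes and 0.444 in those clusters. Gdnf in myoid cells turned to 0.148 without the filter, 0.016 with the replicate block, 0.026 at 500 genes and 0.507 at resolution 2. With a library left out, log2 fold changes ranged from -0.123 to 0.291 (Ret), -0.382 to 0.221 (Bcl6b), -0.474 to 1.963 (Lhx1) and -0.399 to 0.462 (Etv5) in undifferentiated spermatogonia, -0.752 to 0.554 (Cxcr4) and -0.623 to 0.516 (Etv5) in Sertoli cells, -0.948 to 0.199 (Etv5) in Leydig cells and -0.306 to 0.373 (Gdnf) in myoid cells. When a library is left out, the lone library of its group is assumed to vary like the others.

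The replicate numbers are shared by TOs and testes but nothing says that they mark a common batch, and deviations of same-numbered libraries correlated at 0.035 to 0.161 across genes; with the block the 3 calls became 5. Clusters with at least 10 cells in each library were chosen after seeing the data. Without Harmony, myoid cells could not be tested. Few UMIs stand behind Gdnf in testis Sertoli (12) and Leydig cells (11), T, Cxcr4 in testis spermatogonia (2) and Gfra1 in stromal cells (10 and 8).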
